A study of Mus musculus with 2 samples.

Results

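The genes described here are the chemokine Cxcl12, its signalling receptor Cxcr4, and the atypical receptors Ackr3 and Ackr1, 4 of the 32285 genes counted in each of the 2 libraries. They were chosen by gene symbol, and the cell classes in which they were counted were set by marker genes within each library. The libraries held brain cells of C57BL mice aged 8 to 13 weeks, described as NMOSD-like, a model of neuromyelitis optica spectrum disorder, in which autoimmunity injures astrocytes and the cells around them. One library held the CD45-negative subset and the other the CD45-positive subset. CD45, encoded by Ptprc, is the surface protein shared by white blood cells. Sample titles carry the mark 24h; the sources used here do not give what this time counts from, how the model was induced or how many mice entered a library. No library of untreated mice was analysed here, so every value describes brains of the model, and nothing below says what the model changed.

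CXCL12 is a chemokine made by stromal and vascular cells. It binds CXCR4, a receptor that couples to G proteins and draws or holds leukocytes, blood precursors and migrating neural precursors. ACKR3 binds the same chemokine but works through arrestins and internalisation, which removes CXCL12 from the surroundings. ACKR1 binds many inflammatory CC and CXC chemokines without G protein signalling and in mice marks the endothelium of venules. At the blood-brain barrier, CXCL12 shown by vessels is known for holding CXCR4-bearing leukocytes in the space around them.

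Each library is a single sample. No comparison below has replicates, so no test was made, and the 95% intervals (exact Poisson for levels, exact conditional binomial for ratios) cover counting error only. Levels are CPM, counts of the gene's UMIs (unique molecular identifiers, 1 for each captured transcript) scaled per 1000000 UMIs of the summed cells. After filtering, 12817 CD45-negative cells were kept (median 5412 UMIs) and 8432 CD45-positive cells (median 6088.5 UMIs). Ptprc stood at 7.90 CPM in the CD45-negative cells against 612 CPM in the CD45-positive cells, in the order of the sort. Cells whose clusters carried no marker list clearly made up 5.82% of the CD45-negative and 22.96% of the CD45-positive library and stayed unnamed. Barcodes found in both libraries numbered 27, and leaving them out moved none of the ratios beyond its interval.

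Because Cxcl12 was highest in endothelial-like cells and Cxcr4 in immune classes, the bases just before their start sites and that of Ackr3 are shown for comparison. They are 250 bases upstream of each gene from RefSeq (GRCm38.p6), given 5′ to 3′ on the strand of the gene, with capitals marking 3 short motifs wherever they occur on either strand. The TATA box was searched as TATAAA. The letters of the GC box, bound by Sp1-type factors, were GGGCGG. For the core of the hypoxia response element they were ACGTG. The windows are chr6:117168285-117168534 on the plus strand for Cxcl12, chr1:128592300-128592549 on the minus strand for Cxcr4 and chr1:90203730-90203979 on the plus strand for Ackr3. No annotated exon overlaps them. The window of Ackr1 is not shown. The bases just before Ackr1 lie within its neighbour Cadm3, a gene on the same strand.
Cxcl12: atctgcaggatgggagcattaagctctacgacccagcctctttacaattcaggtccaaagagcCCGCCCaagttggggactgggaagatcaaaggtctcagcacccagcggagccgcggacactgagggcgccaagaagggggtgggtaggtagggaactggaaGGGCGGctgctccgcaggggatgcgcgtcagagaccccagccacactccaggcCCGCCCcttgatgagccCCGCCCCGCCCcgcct
Cxcr4: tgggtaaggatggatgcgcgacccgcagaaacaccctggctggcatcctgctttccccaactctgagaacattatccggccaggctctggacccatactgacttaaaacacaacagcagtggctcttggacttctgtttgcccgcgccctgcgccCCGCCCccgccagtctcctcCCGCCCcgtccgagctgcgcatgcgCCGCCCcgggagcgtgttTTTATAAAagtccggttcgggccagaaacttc
Ackr3: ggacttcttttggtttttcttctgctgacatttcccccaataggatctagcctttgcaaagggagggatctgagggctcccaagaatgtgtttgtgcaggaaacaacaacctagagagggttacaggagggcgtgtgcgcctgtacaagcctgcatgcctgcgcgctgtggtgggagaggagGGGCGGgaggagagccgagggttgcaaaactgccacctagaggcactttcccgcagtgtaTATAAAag

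The Cxcl12 window had 64.4% G and C, 5 GC boxes and no TATA box. The Cxcr4 window had 61.2% G and C, 3 GC boxes, and TATA boxes on both strands that overlap each other, at 32 and 30 bases before the start. In the Ackr3 window G and C made up 54.0%, with 1 GC box and a TATA box 8 bases before the start. Over 32851 promoters of the same length, the TATA box letters were present in 12.4%, the GC box letters in 32.7% and the hypoxia core in 16.6%. The hypoxia core was in none of the 3 windows. These matches describe letters only and were not set against the levels.

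Cxcl12 (ENSMUSG00000061353, chr6:117168535-117181367, plus strand, GRCm38) gave 13495 UMIs in the CD45-negative library against 180 in the CD45-positive library. Its transcripts lay above all in endothelial cells, then in fibroblasts, and at lower levels in pericytes and oligodendrocytes. In the CD45-negative library, endothelial-like cells stood at 1655 CPM (1624 to 1687), with a UMI in 69.5% of 1425 cells, and they held 79.3% of the library's Cxcl12 UMIs. Fibroblast-like cells, the collagen-making cells of the meninges and large vessels, had 559 CPM (496 to 627) in 91 cells. Pericyte-like cells, which wrap capillaries, had 86.3 CPM (77.9 to 95.5). Fibroblast-like cells were thus 6.47-fold above pericyte-like cells (5.53 to 7.56). Oligodendrocyte-like cells, which form myelin, had 37.7 CPM (35.2 to 40.3) and smooth muscle-like cells 32.3 CPM (13.9 to 63.6, 8 UMIs), so these 2 classes overlap in the order.

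Among classes of at least 50 cells, the neural and epithelial ones were low. Neuroblast-like cells had 8.56 CPM (6.67 to 10.8), but 42 of their 70 UMIs came from a cluster of 51 cells. Astrocyte-like cells had 5.08 CPM (4.29 to 5.97), cycling neural precursor-like cells 4.43 CPM and choroid plexus epithelial-like cells 3.93 CPM, with overlapping intervals. Thinning each cell to 1000 UMIs kept the order of shares at the top. A Cxcl12 UMI was then seen in 54.7% of endothelial-like, 38.8% of fibroblast-like, 8.20% of pericyte-like, 3.53% of oligodendrocyte-like and 0.457% of astrocyte-like cells.

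In the CD45-positive library the ligand was almost absent from immune cells. Microglia-like cells, the resident macrophages of the brain, had 1 UMI in 2055 cells (0.0487% of cells, median 10814 UMIs per cell), and T cell-like cells had 2 UMIs in 2614. NK cell-like, dendritic-like, plasmacytoid dendritic-like and type 2 innate lymphoid-like cells had 0. Of the 180 UMIs of this library, 162 (90.0%) came from 16 endothelial-like cells that had passed the sort. Those cells stood at 2317 CPM (1974 to 2703). The ratio of the whole libraries, 67.1-fold (58.0 to 78.2), therefore depended on 16 cells of the CD45-positive library.

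**Figure D1:**
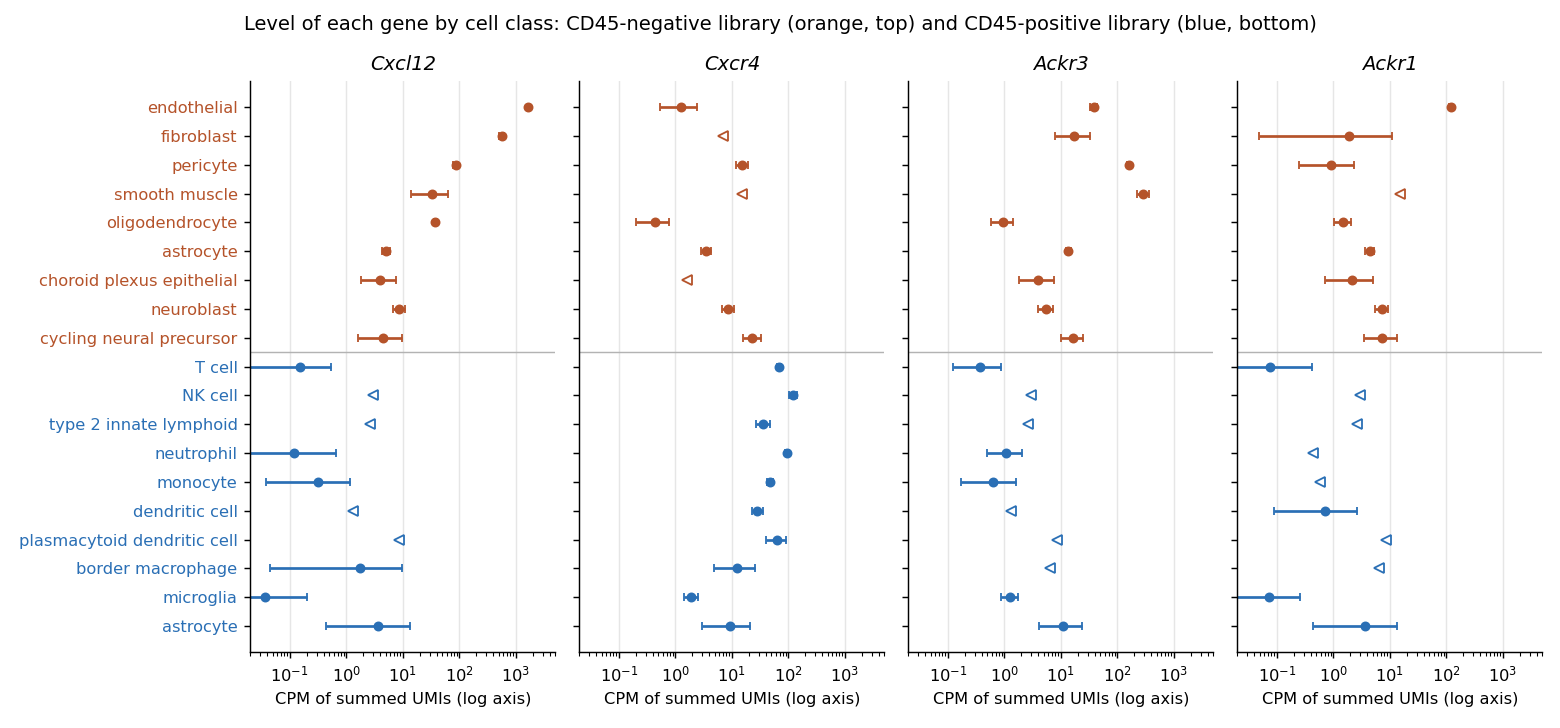
Level of each gene by cell class, as CPM of summed UMIs on a log axis, in the CD45-negative library (orange, upper rows) and the CD45-positive library (blue, lower rows). Points carry 95% Poisson intervals, and open triangles mark the upper bound of classes with 0 UMIs; Cxcl12 stood at 1655 CPM in endothelial-like cells, and Cxcr4 was at 123 CPM in NK cell-like cells.

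RNA freed from endothelial cells would carry both Cxcl12 and endothelial markers. The number of Cxcl12 UMIs per 100 UMIs of 12 endothelial markers was therefore given for each class. It was 7.19 in endothelial-like cells, 10.6 in pericyte-like, 8.10 in neuroblast-like and 5.30 in astrocyte-like cells. In oligodendrocyte-like cells it was 66.5 and in fibroblast-like cells 82.2. The summed endothelial markers stood at 818 CPM in pericyte-like, 680 CPM in fibroblast-like, 95.7 CPM in astrocyte-like and 56.7 CPM in oligodendrocyte-like cells. Oligodendrocyte-like and fibroblast-like cells thus held several times more Cxcl12 per endothelial marker UMI than endothelial cells themselves. In pericyte-like, neuroblast-like and astrocyte-like cells the ratio was near that of endothelial cells. The part of carried-over RNA in the Cxcl12 of any of these classes, oligodendrocyte-like and fibroblast-like cells included, was not tested.

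A cluster of 221 CD45-negative cells, led by Srxn1, Cgref1, Serpinb1a, Btc, Syt4 and Cryab, had more Cxcl12 than any oligodendrocyte-like cluster. Srxn1 reduces oxidised peroxiredoxins, and Cryab is a small heat shock protein. The cluster stayed unnamed by the marker rule. It had all 12 oligodendrocyte markers, summed to 10400 CPM in the Srxn1 cluster against 35015 CPM in oligodendrocyte-like cells. Its cells were deep, with a median of 14389 UMIs in the Srxn1 cluster and 8671.5 in oligodendrocyte-like cells. Cxcl12 reached 263 CPM (245 to 282) in the Srxn1 cluster against 37.7 CPM in oligodendrocyte-like cells, 6.97-fold (6.33 to 7.69). After thinning, 11.4% of its cells and 3.53% of oligodendrocyte-like cells had a UMI. The cluster had 449 Cxcl12 UMIs per 100 endothelial marker UMIs, and the part of carried-over RNA was not tested here either. The ratio depends on where the cluster ends: other clusterings that put 547 to 831 cells in this group gave 2.98- to 4.07-fold, and 5.07-fold was left without the 5 richest cells of each group.

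The signal was uneven among the cells of the Srxn1 cluster. No Cxcl12 UMI was found in 68.3% of them, while 16 cells (7.24%) had 20 or more, with a highest value of 90. In oligodendrocyte-like cells 85.2% had none and 1 of 2570 had 20 or more. Within the capillary segment, described below, 10.1% had none and 26.2% had 20 or more. A subcluster of 67 cells led by Klhl7, Enc1 and Cxcl12 itself stood at 629 CPM (579 to 683), against 103, 47.0 and 11.3 CPM in the next subclusters of 66, 48 and 29 cells. The 36 cells with 5 or more Cxcl12 UMIs differed from the 151 cells with none in other transcripts too. Of these 36 cells, 20 had no endothelial marker UMI. Summed endothelial markers stood at 80.3 CPM in the 36 cells and 44.7 CPM in the 151. The interferon-induced genes Ifit1 and Ifit3 stood at 400 and 793 CPM in these 36 cells, against 68.6 and 199 CPM in the 151. Vldlr, a lipoprotein and reelin receptor, was at 361 against 76.2 CPM, and Enc1, an actin-binding protein, at 325 against 56.9 CPM. These cells were picked by their Cxcl12, so the values are a description.

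**Figure D2:**
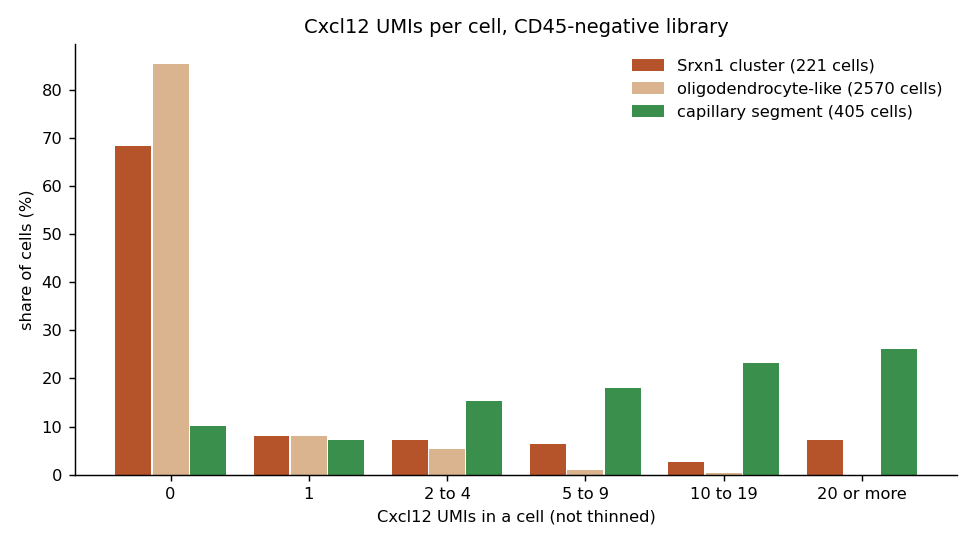
Share of cells (y axis, %) by the number of Cxcl12 UMIs in the cell (x axis, not thinned) in the CD45-negative library. Bars show the Srxn1 cluster (221 cells), oligodendrocyte-like cells (2570) and the capillary segment (405); 7.24% of the Srxn1 cluster had 20 or more UMIs, against 0.0389% of oligodendrocyte-like cells and 26.2% of capillary cells.

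Another unnamed CD45-negative cluster, 274 shallow cells with a median of 972 UMIs, was led by the cytokine Il6 and the chemokines Ccl11 and Cxcl1. Cxcl12 stood at 32.5 CPM (20.6 to 48.7, 23 UMIs) in this Il6 stromal cluster against 86.3 CPM in pericyte-like cells, 0.376-fold (0.236 to 0.573). Ackr3 was also at 32.5 CPM in the Il6 stromal cluster against 158 CPM in pericyte-like cells, 0.206-fold (0.130 to 0.312). Median depth was 972 UMIs in the Il6 stromal cluster and 3586 in pericyte-like cells, and its part in these ratios was not tested. Averaging CPM over cells instead of summing gave 0.727-fold for Cxcl12 and 0.379-fold for Ackr3. A stricter cell filter gave 0.774-fold for Ackr3.

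Along the vessel wall Cxcl12 and Ackr1 were highest in different named endothelial segments. The 1425 CD45-negative endothelial-like cells were divided into subclusters without using the 4 genes, and subclusters were named from markers that also left them out. Arterial cells (157) had 10 of 14 arterial markers such as Gkn3 and Bmx, and capillary cells (405 in 2 subclusters) had 11 of 11 capillary markers such as Mfsd2a and Tfrc. A subcluster of 61 cells had 11 of 13 venous or inflamed markers, among them the adhesion molecules Vcam1 and Icam1. The other 802 cells stayed unnamed.

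Cxcl12 stood at 2252 CPM (2152 to 2355) in arterial cells, 113 CPM (78.6 to 157) in venous or inflamed cells and 2967 CPM (2889 to 3045) in capillary cells. A UMI was found in 82.2% of arterial, 29.5% of venous or inflamed and 89.9% of capillary cells. The venous or inflamed level was 0.0380-fold of the capillary level (0.0265 to 0.0529), and the arterial level 0.759-fold (0.720 to 0.7996). Unnamed subclusters lay between them. The lowest, at 301 CPM, was led by Akap12, Egr1 and Angpt2. Subclusters led by Adamts4, by Scgb3a1 and by Ccn2 were at 635, 785 and 924 CPM. The Scgb3a1 subcluster (112 cells) had 9 of 13 venous or inflamed markers and 11 of 11 capillary markers. Of its leading genes, Slc38a5 and Ch25h are on the venous or inflamed list. Median depth was 5537 UMIs in arterial, 5303 in venous or inflamed and 4614 in capillary cells, and the part of depth was not tested. Across other settings the venous or inflamed difference from capillary lay between -5.52 and -2.44 on the log2 scale, and the arterial one between -1.07 and -0.23.

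Ackr1 (ENSMUSG00000037872, chr1:173331886-173333750, minus strand) ran the other way. It had 590 UMIs in the 61 venous or inflamed cells, 1902 CPM (1751 to 2061), against 6 UMIs in 405 capillary cells, 3.19 CPM (1.17 to 6.93). That is 597-fold (273 to 1633), an interval made wide by the 6 capillary UMIs. Arterial cells had 1 UMI. The 61 cells held 57.4% of the library's Ackr1 UMIs, and 54.1% of them had a UMI (40.4% after thinning). The level was carried by few cells: the highest had 87 UMIs, and 5 cells held 55.6% of the UMIs of the segment. Smaller amounts were found in unnamed subclusters, at 88.1 CPM in that led by Adamts4 and 15.2 CPM (12 UMIs) in that led by Scgb3a1. Ackr1 was at 163 CPM both in 115 shallow cells with oligodendrocyte transcripts (median 878 UMIs) and in 35 cells with astrocyte transcripts. These levels came from 23 UMIs in 6 of the 115 cells and 45 UMIs in 3 of the 35 cells. Across other settings the log2 difference from capillary cells lay between 6.36 and 10.15.

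Ackr3 (ENSMUSG00000044337, chr1:90203980-90216751, plus strand) was lower in arterial cells and higher in venous or inflamed cells than in capillary cells. It had 10 UMIs in arterial cells (11.8 CPM, 5.68 to 21.8), 28 in venous or inflamed cells (90.2 CPM, 59.97 to 130) and 76 in capillary cells (40.4 CPM, 31.8 to 50.5). The arterial level was 0.293-fold of the capillary one (0.135 to 0.569), and the venous or inflamed level 2.24-fold (1.40 to 3.49). The second ratio is not settled: it was 1.16-fold after thinning, 1.24-fold with doublets kept and 0.901-fold at a lower clustering resolution. An unnamed subcluster led by Ccn2 and Gpr182 was as high as the venous or inflamed one, at 92.3 CPM.

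Among all genes with at least 20 UMIs in both segments together, 6.39% were at least 2-fold higher and 11.3% at least 2-fold lower in venous or inflamed than in capillary cells. Of the 3 members that reached this minimum, Ackr1 and Ackr3 were among the higher genes and Cxcl12 among the lower. Ackr1 reached the minimum through the venous or inflamed cells alone. In arterial against capillary cells 4.19% of genes were at least 2-fold higher and 4.25% lower. There only Cxcl12 and Ackr3 reached the minimum, and Ackr3 was among the lower genes. The median over all genes was -0.08 on the log2 scale for venous or inflamed and -0.04 for arterial against capillary cells. With 1 library these shares describe these cells and are not tests.

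**Figure D3:**
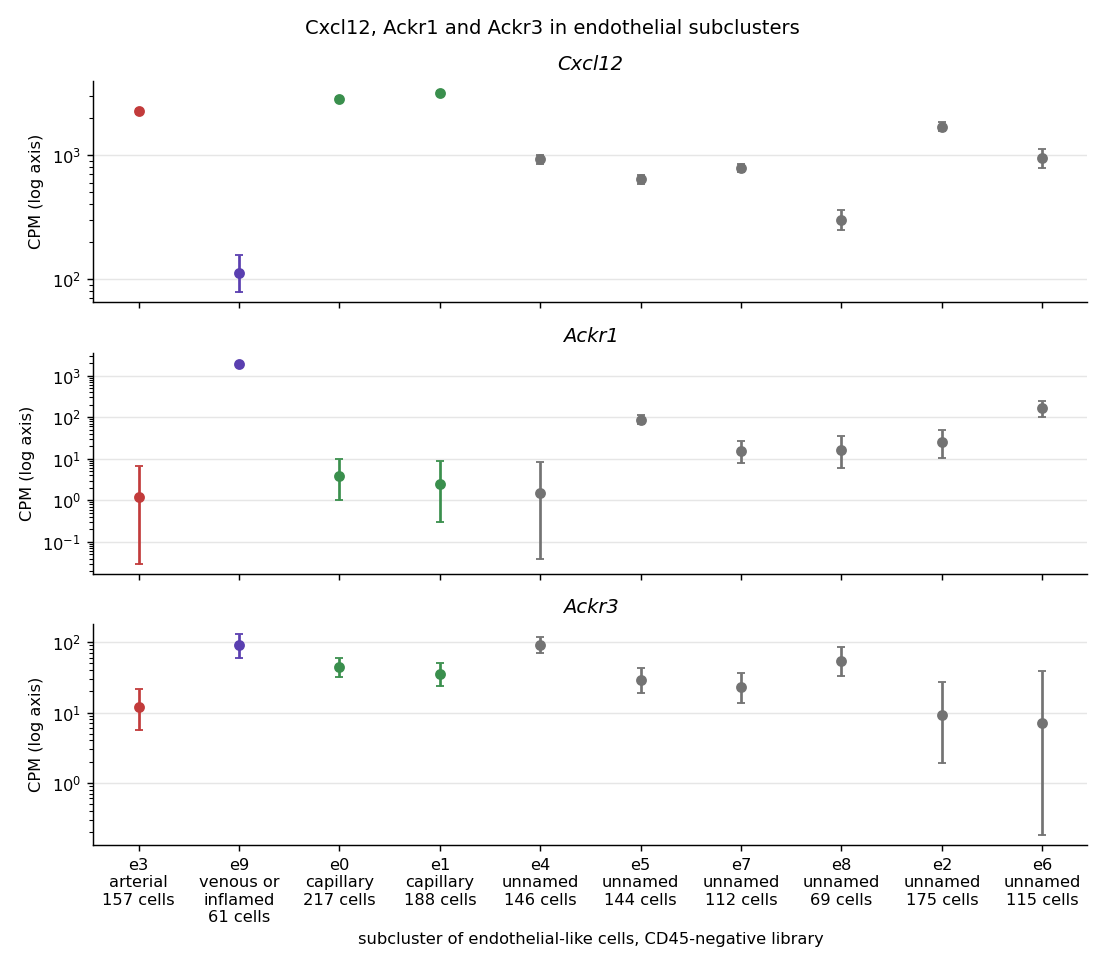
Cxcl12, Ackr1 and Ackr3 (CPM, log axes, with 95% Poisson intervals) in the 10 endothelial subclusters with more than 60 cells, CD45-negative library. The venous or inflamed subcluster, purple, had 113 CPM of Cxcl12 and 1902 CPM of Ackr1, while the 2 capillary subclusters, green, had 2831 and 3145 CPM of Cxcl12 and under 4 CPM of Ackr1.

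Ackr1 and Ackr3 were both counted in 11 of the 61 venous or inflamed cells. Ackr1 had a UMI in 11 of 13 cells with Ackr3 (84.6%) and in 45.8% of the cells without it. Cells with Ackr3 were deeper, with a median of 6380 UMIs against 4193 without, and the part of depth was not tested. Over all endothelial-like cells, Cxcl12 was seen in 118 of 163 cells with Ackr3 (72.4%) and in 69.1% of cells without (median 5701 against 4235 UMIs). Beside Ackr1 it was seen in 28 of 75 cells (37.3%), and in 71.3% of cells without Ackr1 (median 6088 against 4403.5 UMIs). Within the venous or inflamed segment Cxcl12 was seen in 27.3% of the 33 cells with Ackr1 and in 32.1% of cells without.

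Values of listed genes around this axis that lay past 2-fold between segments are given next. Of the 8 ligands of ACKR1 listed, 2 reached 20 UMIs in venous or inflamed and capillary cells together. Both reached it through the venous or inflamed cells, where they are high, so that they are higher there was largely fixed by this minimum. The neutrophil attractant Cxcl1 was at 93.5 CPM in venous or inflamed cells against 2.12 CPM in capillary cells (44.0-fold, 15.5 to 172). Its relative Cxcl2 was at 64.5 against 5.84 CPM (11.0-fold, 5.04 to 25.5). Adm, a vasodilator peptide that ACKR3 can also bind, was lower in both other segments, at 26.04 CPM in arterial and 32.2 CPM in venous or inflamed cells against 119 CPM in capillary cells. Dpp4, which clips CXCL12, had 0 UMIs in venous or inflamed cells against 36 in capillary cells.

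Of 17 genes of CXCR4 signalling, 10 reached the minimum in venous or inflamed against capillary cells, with 2 higher and 1 lower, against 6.39% and 11.3% of all genes tested. Nothing particular to this list or those that follow is read from such small counts. Rgs16, which switches G proteins off and reached the minimum through the venous or inflamed cells, was at 161 CPM in venous or inflamed cells against 5.84 CPM in capillary cells (27.6-fold, 14.2 to 58.8). The receptor kinase Grk5 was at 51.6 against 21.8 CPM (16 against 41 UMIs, 1.24- to 4.31-fold). The lower gene was Elmo1, at 0.486-fold in venous or inflamed cells (0.260 to 0.837). Of 7 transcription factors, 2 were higher and 2 lower there, beside the same shares of all genes. Hif1a stood at 371 CPM in venous or inflamed cells against 125 CPM in capillary cells (2.97-fold), and its relative Epas1 at 628 against 1288 CPM (0.488-fold). Sox17, a factor of arterial endothelium, was at 155 against 396 CPM (0.391-fold). Nr2f2, the other higher factor, was at 287 against 43.01 CPM (6.67-fold). It is also 1 of the venous markers that named this segment, so its place in that count was favoured by the naming. Of 13 heparan sulfate genes, whose sugar chains hold chemokines on the cell surface, 8 reached the minimum. Sdc4 was 2.30-fold higher (1.15 to 4.35) and Sdc3 at 0.399-fold (0.220 to 0.673), beside the same shares. In arterial against capillary cells, where 4.19% of all genes tested were higher and 4.25% lower, Arrb1, Sulf2 and Ebf1 were over 2-fold higher, and Elmo1 and Nr2f2 over 2-fold lower. Arrb1 rested on 30 against 24 UMIs (1.58- to 4.98-fold) and Sulf2 on 20 against 19 (1.19- to 4.65-fold). The medians of the lists with 7 or more measured genes lay between -0.44 and 0.26 on the log2 scale.

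Outside endothelium, Ackr1 counts need care. Cadm3 (ENSMUSG00000005338, chr1:173333258-173367695, minus strand), a neural adhesion molecule, overlaps Ackr1 on the same strand. In astrocyte-like cells 127 Ackr1 and 491 Cadm3 UMIs were counted, 0.259 Ackr1 per Cadm3 UMI (0.211 to 0.315). The ratio was 0.262 in neuroblast-like cells, 0.310 in oligodendrocyte-like cells and 0.308 in pericyte-like cells (4 Ackr1 UMIs, 0.0731 to 0.996). In 34 neuron-like cells, at 34.4 CPM of Ackr1 and 159 CPM of Cadm3, it was 0.216 (0.101 to 0.419). It was higher, with wide intervals, in cycling neural precursor-like cells (0.625, 0.254 to 1.46). The ratio was 2.5 (0.409 to 26.3) in choroid plexus epithelial-like cells, on 5 Ackr1 and 2 Cadm3 UMIs. In endothelial-like cells it was 16.0 (11.9 to 21.9), and in the venous or inflamed segment 53.6 (29.8 to 108). Reactive astrocytes had the highest Ackr1 level among astrocyte states, 12.7 CPM (9.82 to 16.2), and also the highest Cadm3, 44.6 CPM, at a ratio of 0.284. Telencephalic-type astrocytes had 3.18 and 15.1 CPM of the 2 genes, and Agt-type astrocytes 1.54 and 4.97 CPM. UMIs given to Ackr1 in these neural classes and reads of Cadm3 transcripts cannot be told apart from counts.

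**Figure D4:**
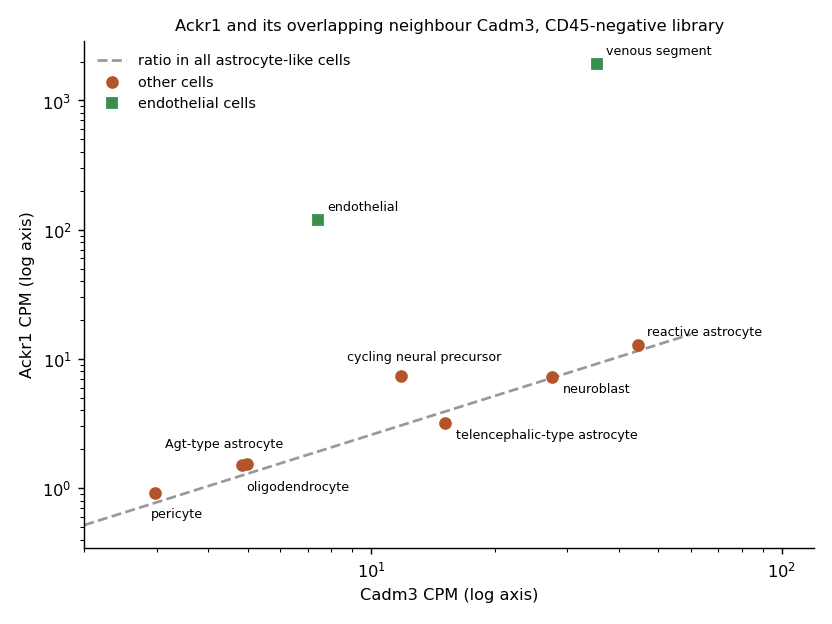
Ackr1 level (y axis) against the level of its overlapping neighbour Cadm3 (x axis), CPM on log axes, in classes, astrocyte states and the venous segment of the CD45-negative library. The dashed line is the ratio in all astrocyte-like cells (0.259). Astrocyte states, neuroblast-like, oligodendrocyte-like and pericyte-like cells lie near it. Cycling neural precursor-like cells (ratio 0.625) lie above it, and endothelial-like cells (16.0) and the venous segment (53.6) lie far above.

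Apart from these, Ackr1 UMIs were few. In the CD45-positive library it had 26 UMIs, 19 of them in the 16 endothelial-like cells, against 1027 UMIs in the CD45-negative library (12.4 CPM in CD45-negative against 0.352 CPM in CD45-positive cells, 35.4-fold, 24.004 to 54.4). Monocyte-like cells had 0 of 386 cells with a UMI, which allows a share of up to 0.777%. Microglia-like cells had a UMI in 0.0973% of cells.

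Among named CD45-negative classes of at least 50 cells, Ackr3, the other atypical receptor, was highest in the mural cells of vessels and lower in their endothelium. Smooth muscle-like cells, which ring arteries and arterioles, had 286 CPM (224 to 361, 71 UMIs) and a UMI in 63.8% of 58 cells. Pericyte-like cells had 158 CPM (146 to 170) and a UMI in 31.8% of 1159 cells, and they held 41.1% of the library's Ackr3 UMIs. Smooth muscle-like cells were 1.82-fold above pericyte-like cells (1.40 to 2.32), at median depths of 3832.5 and 3586 UMIs. After thinning, 27.6% of smooth muscle-like and 12.9% of pericyte-like cells had a UMI. Endothelial-like cells followed at 38.0 CPM (33.4 to 43.1). Ependymal-like cells, a class below 50 cells given under other observations, stood above endothelial-like cells and near pericyte-like cells. An unnamed mural cluster of 69 cells led by Crip1, Myl9 and Ogn was at 328 CPM (263 to 405). Fibroblast-like, cycling neural precursor-like and astrocyte-like cells stood at 17.3, 16.2 and 13.6 CPM with overlapping intervals, and oligodendrocyte-like cells at 0.944 CPM.

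Astrocytes differed among themselves in Ackr3. Agt-type astrocytes, a state named for angiotensinogen (Agt), had 26.4 CPM (23.1 to 30.1) against 4.89 CPM (3.54 to 6.59) in telencephalic-type astrocytes, 5.40-fold (3.88 to 7.67). This ratio kept its direction in the other clusterings, filters and scalings tried, between 2.21 and 2.83 on the log2 scale. Reactive astrocytes were at 6.73 CPM (4.69 to 9.36). Cxcr4 had a similar lean, at 6.16 CPM (4.60 to 8.08) in Agt-type against 1.36 CPM (0.705 to 2.38) in telencephalic-type astrocytes. It rested on 52 and 12 UMIs, and its direction reversed when both libraries were clustered together. Microglial transcripts also differed, with summed microglia markers at 2791 CPM in Agt-type and 616 CPM in telencephalic-type astrocytes, and their part in the Cxcr4 ratio was not tested.

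In the CD45-positive library Ackr3 had 77 UMIs against 1678 in the CD45-negative library, a CD45-negative to CD45-positive ratio of 19.5 (15.5 to 24.9). Microglia-like cells held 35 of the 77, at 1.27 CPM (0.881 to 1.76) and in 1.56% of cells, and 13 pericyte-like cells held 10. T cell-like cells were at 0.379 CPM, and NK cell-like and dendritic-like cells at 0 UMIs.

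Cxcr4 (ENSMUSG00000045382, chr1:128588199-128592293, minus strand) was the member of the CD45-positive side, with 411 UMIs in the CD45-negative library against 2552 in the CD45-positive library. The levels were 4.98 CPM in CD45-negative against 34.5 CPM in CD45-positive cells, 0.144-fold (0.130 to 0.160). Lymphocytes and cells with neutrophil genes were high, and the named microglia-like class was low. NK cell-like cells stood at 123 CPM (104 to 144), a cluster with neutrophil markers at 94.0 CPM (87.6 to 101) and T cell-like cells at 68.7 CPM (64.3 to 73.3). These 3 intervals do not overlap. NK cell-like cells were 1.79-fold above T cell-like cells (1.501 to 2.13). T cell-like cells, the largest of these classes with 2614 cells, held 35.5% of the library's Cxcr4 UMIs.

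Below these the classes overlapped pair by pair. Plasmacytoid dendritic-like cells had 62.0 CPM (40.9 to 90.2), monocyte-like cells 47.2 CPM (41.9 to 52.9), type 2 innate lymphoid-like cells 35.7 CPM (26.6 to 47.0) and dendritic-like cells 28.3 CPM (22.4 to 35.3). A cluster of 52 dendritic-like cells, among those summed there, reached 52.0 CPM. Border macrophage-like cells had 12.2 CPM. Monocyte-like cells were 0.687-fold of T cell-like cells (0.6001 to 0.784), but 1.02-fold when both libraries were clustered together. Microglia-like cells had 1.92 CPM (1.43 to 2.51), 53 UMIs in 2055 cells. T cell-like cells were thus 35.9-fold above microglia-like cells (27.2 to 48.2).

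Shares of cells with a UMI followed depth as well as level. Before thinning, 33.3% of NK cell-like, 24.6% of T cell-like, 34.7% of monocyte-like and 2.34% of microglia-like cells had a Cxcr4 UMI, at median depths of 4939, 4666, 12242.5 and 10814 UMIs. At 1000 UMIs a cell, the shares were 13.1%, 8.12%, 6.60% and 0.0982%. Free RNA and low expression cannot be told apart in the microglial share.

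Among T cell-like clusters the receptor varied little. CD8 cells had 61.7 CPM (54.7 to 69.2) against 72.5 CPM (66.0 to 79.5) in CD4 cells that were not regulatory, 0.851-fold (0.731 to 0.988). This small difference reversed after thinning, to 1.11-fold. Gamma-delta and regulatory T cells had 69.7 CPM (50.6 to 93.5) and 74.8 CPM (51.8 to 105), overlapping both.

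The cluster with neutrophil markers was mixed. Its 428 cells were led by S100a9, S100a8 and Il1f9, but their summed microglia markers stood at 20976 CPM, close to the 25018 CPM of microglia-like cells, and the median depth of 15122 UMIs was high. Of its 6 subclusters, the 62 cells of n4, with summed neutrophil markers at 43895 CPM against 1278 to 5947 CPM in the others, had 279 CPM of Cxcr4 (223 to 345). The 69 cells of n2, led by Gstm1 and Slpi, had 397 CPM (325 to 479). The remaining 4 subclusters had 60.9 to 93.5 CPM, microglia markers between 17868 and 23637 CPM and median depths of 14415 to 27349 UMIs. Microglia-like cells, at 25018 CPM of these markers, had only 1.92 CPM of Cxcr4. In n2 and n4 the microglia markers stood at 9780 and 7952 CPM and the median depths at 2916 and 3739.5 UMIs. Cxcr4 was thus higher in the subclusters with fewer microglial transcripts, and the part of microglial transcripts and depth in this was not tested. The whole cluster stood 1.37-fold above T cell-like cells (1.24 to 1.51), and 2.77-fold when CPM was averaged over cells, which gives shallow cells equal weight.

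**Figure D5:**
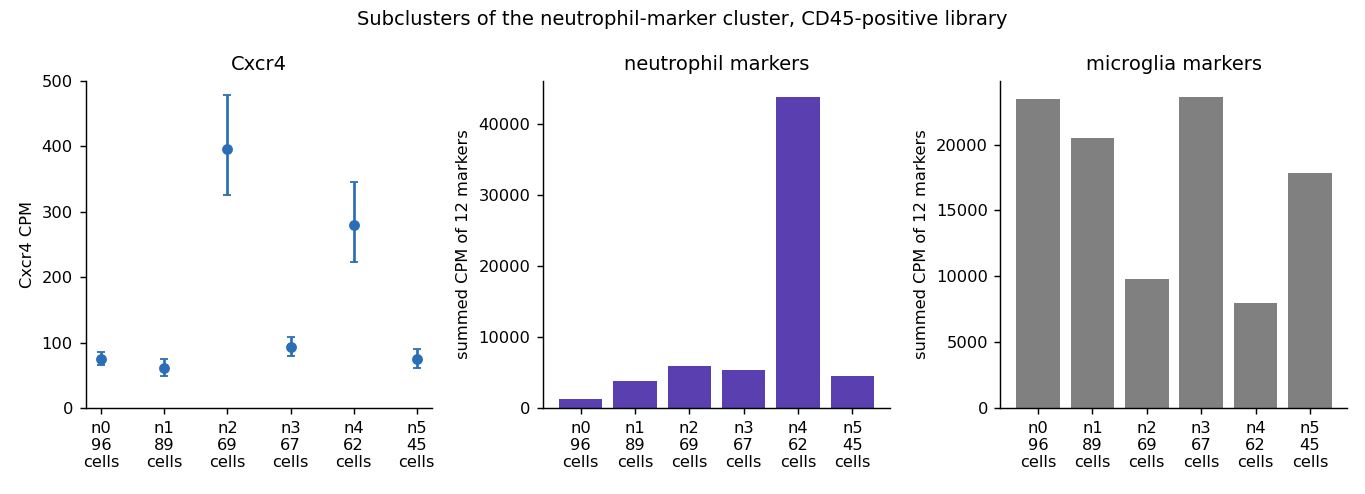
Cxcr4 CPM with 95% Poisson intervals (left) and the summed CPM of 12 neutrophil markers (middle) and 12 microglia markers (right) in the 6 subclusters of the cluster with neutrophil markers, CD45-positive library. Subclusters n2 and n4 had 397 and 279 CPM of Cxcr4, the others 60.9 to 93.5 CPM.

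In CD45-negative cells Cxcr4 was sparse, and among named classes of at least 50 cells it was highest in neural precursors and pericytes. Cycling neural precursor-like cells had 22.9 CPM (15.6 to 32.5) and a UMI in 25.6% of 82 cells, against 8.56 CPM (6.67 to 10.8) and 4.61% in neuroblast-like cells, 2.67-fold (1.69 to 4.14). Precursor cells were deeper, at a median of 16042.5 UMIs against 7053 in neuroblast-like cells, and after thinning the ratio was 1.24-fold. Pericyte-like cells had 15.1 CPM (11.7 to 19.2, 66 UMIs). An unnamed cluster of 139 cells with microglial and neutrophil genes, C1qa and S100a9 among its leaders, had 47.4 CPM (36.6 to 60.4). Endothelial-like cells had 8 UMIs, 1.24 CPM, so ligand and receptor were rarely counted in the same endothelial cell (4 of 1425 cells). No UMI was seen in 220 choroid plexus epithelial-like, 91 fibroblast-like and 58 smooth muscle-like cells, which allows shares of up to 1.36%, 3.30% and 5.17% of cells with a UMI.

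Among named classes of at least 50 cells, the listed partners of the axis were led by the following ones. MIF, another ligand of CXCR4, was highest in choroid plexus epithelial-like cells (Mif, 1208 CPM), and its receptor chain Cd74 in dendritic-like cells (14537 CPM). Among ACKR1 ligands, Ccl5 was highest in NK cell-like cells (7124 CPM) and Ccl2 in monocyte-like cells (1420 CPM). Cxcl2 was highest in type 2 innate lymphoid-like cells (3913 CPM) and Ccl11 in pericyte-like cells (98.2 CPM). The unnamed Il6 stromal cluster, which had Ccl11 and Cxcl1 among its leading genes, was not part of this ranking. The opioid precursor Penk, whose peptides ACKR3 can bind, was highest in fibroblast-like cells (102 CPM), and Cxcl11 was not among the genes measured. Of other homing receptors, Cxcr3 and Cxcr6 were highest in T cell-like cells (236 and 310 CPM), Ccr7 in dendritic-like cells (319 CPM) and Cxcr2 in the neutrophil-marker cluster (100.1 CPM). Rgs1, a brake on chemokine receptor signalling, was highest in NK cell-like cells (599 CPM, 557 to 643). Type 2 innate lymphoid-like cells, at 577 CPM of Rgs1, lay within that interval. Foxc1 and Ebf1, factors known to maintain Cxcl12-rich stroma in mouse bone marrow, were highest in fibroblast-like (436 CPM) and smooth muscle-like cells (1025 CPM). Pericyte-like cells followed at 429 CPM of Foxc1 and 916 CPM of Ebf1, within the intervals of these levels (381 to 496 and 903 to 1159).

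Over the 19 class sums of at least 50 cells, the genes whose log2(CPM + 1) was most like that of each member were listed among 14154 genes, as a description, since the sums share 2 libraries and their depth. Closest to Cxcl12 were Efna1 (Pearson r = 0.94), Adgrf5, Ltbp4, 2700046A07Rik and Apcdd1, of which 4 were highest in endothelial-like cells. Closest to Cxcr4 were Usb1 (r = 0.85), Hist4h4, Nup210, Stap1 and Lrwd1, led by 5 different classes. Prom1 (r = 0.96), Samd12, Shank3 and Cdh13 were among the closest to Ackr1 and highest in endothelial-like cells. The Ackr1 values of neural classes used for this cannot be told apart from reads of Cadm3. Afap1l2 (r = 0.97), Spry4, Pcdh19, Gjc1 and Dlc1 were closest to Ackr3 and highest in smooth muscle-like or pericyte-like cells. With a pseudocount of 10, the same 5 genes were found for Ackr3, 3 for Ackr1, 1 for Cxcl12 and 0 for Cxcr4.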

How the data were processed

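Counts of UMIs per gene and cell in 2 droplet libraries of 3' transcript ends (10x Genomics, v3 reagents per the labels) were deposited by the authors without normalization. They were made with Cell Ranger 6.1.2 on mm10, per the submitters' processing notes. For the annotation release, cell calling, any earlier doublet removal and the method of the CD45 sort, the version or setting is not given in the sources used here. Gene positions come from GENCODE M21.

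The libraries held 14524 CD45-negative and 8662 CD45-positive barcodes with 92691820 and 76182401 UMIs. Kept cells had at least 500 UMIs, at least 200 genes and at most 20% mitochondrial UMIs. Scrublet called 876 (6.03%) and 177 (2.04%) barcodes as doublets, which were removed; others may remain. Each library was clustered on its own (2000 variable genes without the 4 members, 30 components, 15 neighbours, Leiden resolution 1; scanpy 1.11.5, leidenalg 0.10.2, numpy 2.4.6, scipy 1.17.1, Python 3.11.15). Clusters were named "-like" from 26 marker lists; thresholds of the naming rule, the states and the subclusters of the neutrophil-marker and Srxn1 clusters were set after seeing the data. Classes below 50 cells are given as values only. Levels are CPM (counts per 1000000 UMIs, summed over cells) with exact Poisson intervals, shares have Clopper-Pearson intervals (95%), a count of 0 allows 3 counts, and shares were also taken after thinning to 1000 UMIs, which left out 684 and 814 shallower cells. edgeR 4.0.16 (R 4.3.3) gave the TMM factor of an alternative. Scripts were tested on simulated data.

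With 1 library a group no test was possible. The members, the 9 pathway lists (74 genes) and the tests were chosen with earlier results of these data known. Genes were named as members, as list genes with at least 20 UMIs past 2-fold between segments or with their leading class, and as the 5 genes most like each member (1 gene is not reported here); genes that lead a cluster and those compared by Cxcl12 in the Srxn1 cluster were named after their values were seen. Alternatives changed clustering, filters, doublets, thinning, scaling, averaging and the pseudocount.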

Additional observations from a re-analysis of the deposited data

How the results depend on the processing

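Across 22 ratios, 248 values were computed under other settings: 178 stayed within the counting interval, 66 moved beyond it and 4 changed direction. The values below are log2 ratios, and the cause of each move was not tested unless named. No paired analysis was possible because each group has 1 library, and there was no replicate to leave out.

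The 4 that reversed were Cxcr4 in Agt-type over telencephalic-type astrocytes (-1.13) and in monocyte-like over T cell-like cells (0.026) with both libraries clustered together, Ackr3 in venous over capillary cells at resolution 0.5 (-0.15), and Cxcr4 in CD8 over CD4 cells after thinning (0.15).

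For CD45-negative over CD45-positive libraries, TMM scaling (a shift of 0.47) gave 5.598 for Cxcl12, -3.26 for Cxcr4 and 3.82 for Ackr3. The median of ratios (0.52) gave 5.55, -3.32 and 3.76 for the same genes. Thinning gave 5.68 for Cxcl12, -3.09 for Cxcr4 and 2.82 for Ackr1, and the mean over cells 5.79, -3.23 and 3.34. Without the 5 cells richest in the gene in each group, an alternative chosen after seeing the data, Cxcl12 gave 7.92 and Ackr1 6.97.

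Cxcl12 in arterial over capillary cells was -0.66 at resolution 0.5, -0.86 at resolution 2, -0.55 with libraries clustered together, -0.23 with doublets kept, -0.53 after thinning, -1.07 without a cell filter, -0.83 with a stricter one, -0.99 with segments set cell by cell and -0.53 without the richest cells. Cxcl12 in venous over capillary cells was -2.50 at resolution 0.5, -3.05 with doublets kept, -4.14 after thinning, -3.76 with the members among the variable genes, -2.44 with segments set cell by cell, -4.04 with the stricter filter and -5.52 without the richest cells. Ackr1 in venous over capillary cells was 6.36, 7.95 and 7.27 at resolution 0.5, with doublets kept and with segments set cell by cell. Ackr3 in venous over capillary cells was 0.31 with doublets kept, 0.22 after thinning, 0.18 with segments set cell by cell and 0.29 with the stricter filter, and in arterial over capillary cells -0.81 after thinning.

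Cxcl12 in the Srxn1 cluster over oligodendrocyte-like cells was 1.83 at resolution 0.5, 1.57 with libraries together, 1.87 with doublets kept, 2.65 after thinning, 1.81 with the members among the variable genes, 2.02 without a filter, 1.90 with the stricter one and 2.34 without the richest cells. In the Il6 stromal cluster over pericyte-like cells, Cxcl12 was -2.48 and -2.84 at resolutions 0.5 and 2, -0.46 as a mean over cells, -2.33 with the members among the variable genes, -2.23 with the stricter filter and -2.20 without the richest cells. Ackr3 there was -0.97 at resolution 2, -1.40 as a mean over cells and -0.37 with the stricter filter. Smooth muscle-like over pericyte-like cells gave 1.28 for Ackr3 with the members among the variable genes.

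Thinning moved Cxcr4 in T cell-like over microglia-like cells to 6.47, in Agt-type over telencephalic-type astrocytes to 3.26 and in precursor-like over neuroblast-like cells to 0.31. Cxcr4 in the neutrophil-marker cluster over T cell-like cells was 1.07 both with libraries together and after thinning and 1.47 as a mean over cells. Cxcr4 in monocyte-like over T cell-like cells was -0.31 at resolution 0.5, -0.19 after thinning and -0.33 as a mean over cells, and in CD8 over CD4 cells -0.52 at resolution 0.5. Where a setting formed no such cluster, it gave no value. Low counts limit Ackr3 in the segments, Ackr1 in capillary cells and Cxcr4 in CD45-negative cells.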

Other observations

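Classes with fewer than 50 cells were left out of the order of levels, and their values are given here. In the CD45-negative library, 46 ependymal-like cells, which line the ventricles, had 131 CPM of Ackr3 (95.1 to 176, 44 UMIs in 39.1% of cells), a level near that of pericyte-like cells. They also had 41.6 CPM of Cxcl12 (22.8 to 69.9) and 20.8 CPM of Cxcr4 (8.37 to 42.9). The 34 neuron-like cells had 199.95 CPM of Cxcl12 (154 to 255), with 84.4% of the UMIs in 5 cells, and 49.99 CPM of Cxcr4 (28.6 to 81.2). Among 23 CD45-negative T cell-like cells, 71 of 72 Cxcl12 UMIs were in a single cell; the class had 89.0 CPM of Cxcr4 (49.8 to 147).

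In the CD45-positive library, 42 B cell-like cells had 110 CPM of Cxcr4 (78.3 to 150), with a UMI in 47.6% of cells and none of Cxcl12. The 13 pericyte-like cells of this library had 196 CPM of Ackr3 (94.0 to 360). Astrocyte-like cells of this library (94 cells) had 11.0 CPM of Ackr3 (4.03 to 23.9), overlapping the 13.6 CPM of CD45-negative astrocyte-like cells. An unnamed cluster of 99 cells with class II genes and Clec10a had 75.5 CPM of Cxcr4 (60.5 to 93.2), above the 28.3 CPM of dendritic-like cells.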
